A study of Mus musculus with 7 samples.

Results

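The genes for the sphingosine-1-phosphate (S1P) receptors S1pr1, S1pr2 and S1pr4 and for the cannabinoid receptor Cnr2 were examined for occupancy by GATA2 and by its mutant 9aa-Ins. They are 4 of 21938 protein-coding genes of the GENCODE M21 annotation of the mouse genome (mm10). A peak was linked to a gene when its summit, the position with the most reads in the peak, lay inside the gene or within 100 kb of the gene start. By this rule, 17 of 6254 GATA2 peaks and 2 of 1079 9aa-Ins peaks were linked to the receptor genes. S1pr1, S1pr4 and Cnr2 were taken because the study counts them among the G protein-coupled receptor genes that GATA2 activates, and S1pr2 is a related receptor examined with them.

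Peaks came from CUT&Tag, in which an antibody brings a transposase to the protein of interest and the DNA cut around it is sequenced. The cells were hi-77-/- mouse fetal liver hematopoietic progenitors, which lack the Gata2 -77 enhancer on both alleles and carry a conditional, estrogen-dependent Hoxb8 that keeps them growing in β-estradiol. They were infected for 3 days with a retrovirus encoding GATA2 or 9aa-Ins, a GATA2 in which an insertion separates the zinc fingers, each with an HA tag, and sorted by FACS. Of 7 libraries, the 4 made with anti-HA antibody, 2 for each protein, gave 1 merged peak list per protein, whereas the 3 libraries made with anti-GATA2 antibody gave no peaks used here. No library of the 7 used a control antibody or cells without an HA-tagged protein. Peaks that would arise without the tagged protein could therefore not be told apart. Cells of a condition were pooled before the replicates were split, per the methods of the study. Because each list merges its replicates, no value has an SD and no difference between the lists could be tested. Both proteins were expressed from a virus and not from the Gata2 locus, and the lists hold no expression values, so neither the labelled cell type nor the RNA level of the receptors could be checked here.

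S1P is a lipid that is abundant in blood and lymph and scarce inside tissues, and hematopoietic and immune cells sense the difference through G protein-coupled receptors. S1PR1 couples to Gi and drives cells toward S1P, S1PR2 signals through other G proteins and restrains migration, and S1PR4 is found mainly on hematopoietic cells. CNR2 is the cannabinoid receptor of immune cells and also couples to Gi. GATA2 binds WGATAR, in which W is A or T and R is A or G, and it often acts from distal enhancers.

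GATA2 peaks were linked to all 4 receptor genes, but none lay inside a receptor gene or at its promoter, defined as 2 kb upstream to 100 bp downstream of a transcript start. S1pr4 had 8 linked GATA2 peaks, S1pr2 had 5, Cnr2 had 3 and S1pr1 had 1. By the same rule, 52.5% of protein-coding genes had at least 1 GATA2 peak, and 14.8% had one at their own promoter. S1pr2 alone of the 4 genes was linked to 9aa-Ins peaks, with 2, both of which overlapped a GATA2 peak. Over all 9aa-Ins peaks, 88.0% overlapped a GATA2 peak. Across all protein-coding genes, 18.6% were linked to a 9aa-Ins peak. This share was 45.7% among genes with 11 or more gene starts within 100 kb, the group of S1pr2, 24.6% with 6 to 10 starts, the group of S1pr4 and Cnr2, and 3.86% with 1 start, the group of S1pr1.

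**Figure D1:**
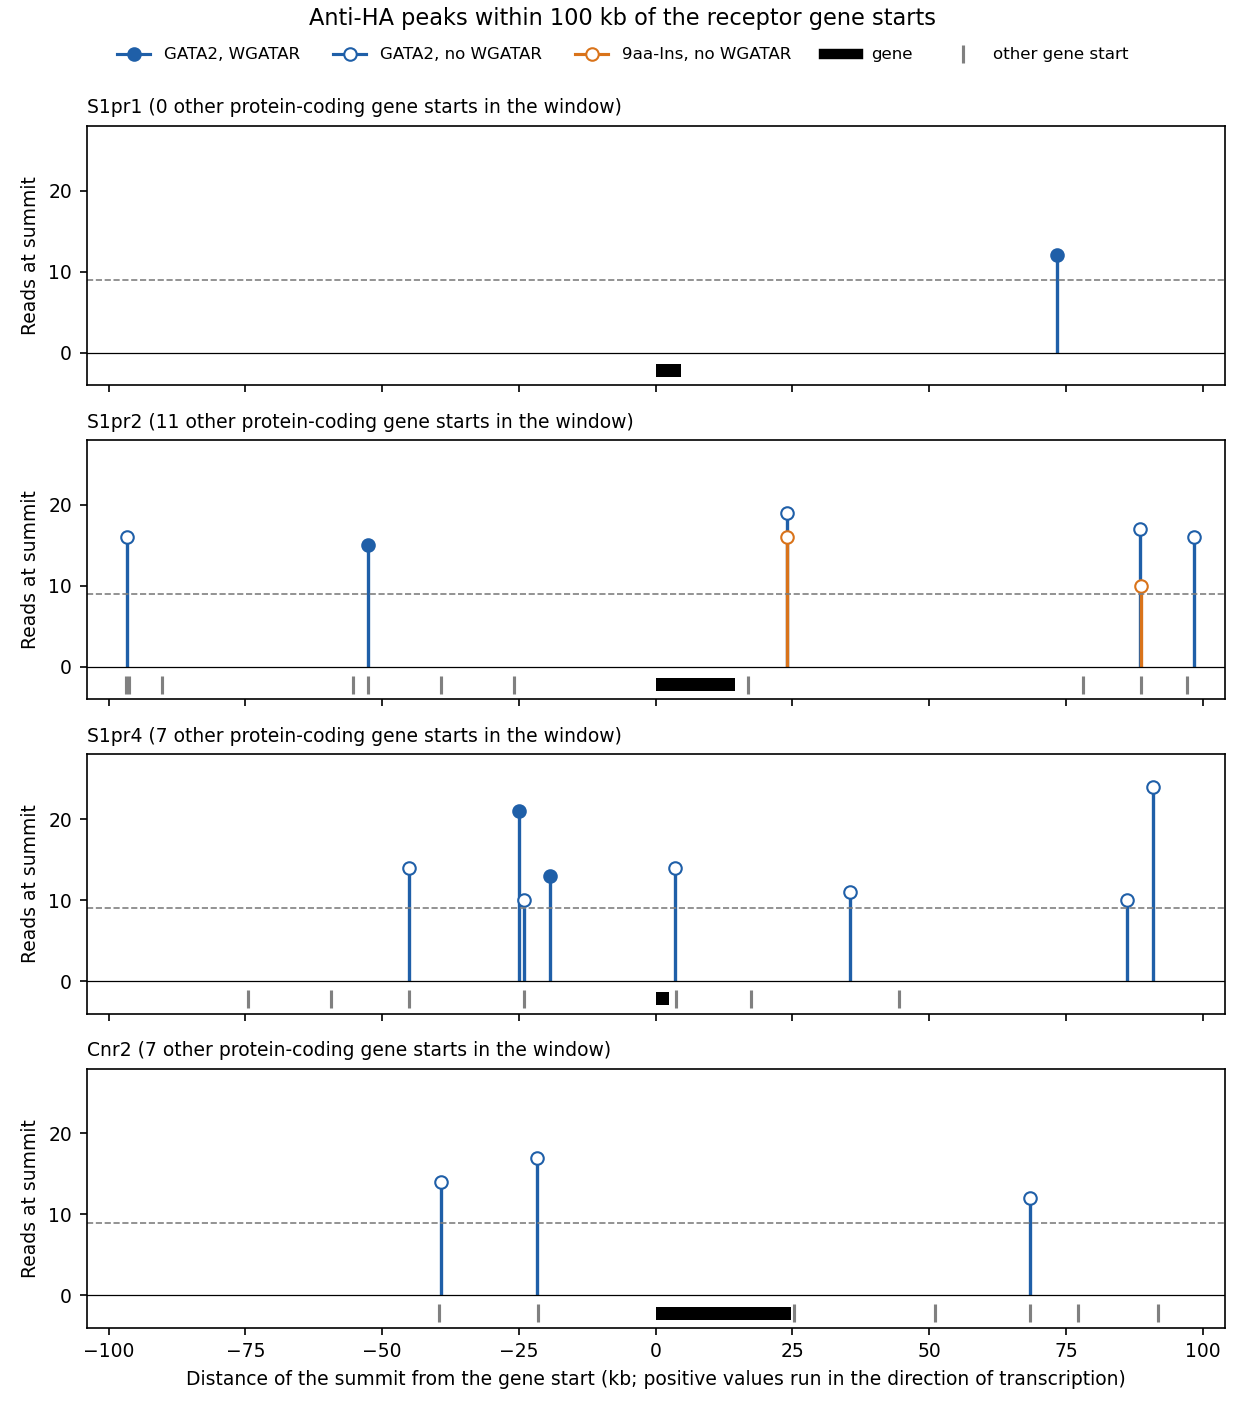
Each panel shows 1 receptor gene, with the distance of a peak summit from the gene start in kb on the x axis and the reads at the summit on the y axis. Blue stems are GATA2 peaks and orange stems 9aa-Ins peaks, filled circles mark WGATAR within 100 bp of the summit, the dashed line marks 9 reads, the fewest in any listed peak, and the black bar and grey ticks mark the gene and the starts of other protein-coding genes. The summits stand apart from the black bars, and the 2 orange stems appear at S1pr2 only.

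The height of a peak is given as the reads stacked at its summit, which were recovered from the deposited fold enrichment. Its interval is the exact Poisson 95% interval, which covers counting error only. The sequences of the peaks with WGATAR near the summit are shown because they carry the motif that GATA2 recognizes. All are from the plus strand of mm10, in lower case with WGATAR, or its reverse complement, in capitals.

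The only GATA2 peak linked to S1pr1 was also the only one of the 17 that was intergenic and that had a receptor gene as its nearest protein-coding gene start. It spanned chr3:115641512-115641699, with its summit 73.4 kb downstream of the S1pr1 start. It held 12 reads (95% CI 6.20 to 20.96), a fold enrichment of 8.88, and stood at percentile 22.7 of the GATA2 list by fold enrichment. S1pr1 (ENSMUSG00000045092.8) lies on the minus strand at chr3:115710433-115715072, and no other protein-coding gene starts within 100 kb of its start. Among all protein-coding genes, 20.5% were the nearest gene start of a GATA2 peak within this reach. TGATAA was centred 45.5 bp to one side of the summit and AGATAG 34.5 bp to the other, so that the summit lay between the motifs. The second motif began 1 base beyond the end of the called peak. The 101 bases around the summit, chr3:115641618-115641718, hold both motifs.
S1pr1 downstream peak: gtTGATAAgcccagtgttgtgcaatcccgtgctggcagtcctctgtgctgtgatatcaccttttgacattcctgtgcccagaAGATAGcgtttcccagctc
No 9aa-Ins peak overlapped this site, and the 9aa-Ins peak nearest to the S1pr1 start was 6803.54 kb away. The next GATA2 peak fell just outside the reach, 104.7 kb upstream of S1pr1, with 9 reads and WGATAR near its summit.

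S1pr4 had the most linked peaks, and the closest of them lay 3.60 kb downstream of its start at the promoter of Ncln, which encodes the endoplasmic reticulum protein nicalin. S1pr4 (ENSMUSG00000044199.6) is a gene of 1 exon at chr10:81497747-81500132 on the minus strand, with the starts of 7 other protein-coding genes within 100 kb. The Ncln peak, chr10:81496354-81496800, held 14 reads (95% CI 7.65 to 23.5), a fold enrichment of 10.2. Its summit was 138 bp upstream of the Ncln start, and no WGATAR was found within 100 bp of it. The 101 bases around the summit, chr10:81496480-81496580, are shown as the sequence nearest to S1pr4 in the list, with no capitals because they hold no WGATAR.
Ncln promoter peak: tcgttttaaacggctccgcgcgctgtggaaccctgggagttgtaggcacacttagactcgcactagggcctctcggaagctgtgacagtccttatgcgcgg

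The 4 GATA2 peaks upstream of S1pr4 were at genes for G protein α subunits. Gna15 encodes an α subunit of the Gq class made mainly in hematopoietic cells, and Gna11 encodes a widely expressed one. An intronic Gna15 peak at chr10:81519420-81519786, 19.4 kb upstream of the S1pr4 start, held 13 reads (95% CI 6.92 to 22.2), a fold enrichment of 9.56. At the Gna15 promoter, the peak chr10:81524185-81524362 held 10 reads (95% CI 4.80 to 18.4), a fold enrichment of 7.51, with the summit 29 bp upstream of the Gna15 start. A second promoter peak, chr10:81524765-81525457, held 21 reads (95% CI 13.0 to 32.1), a fold enrichment of 15.03, and its summit was 951 bp upstream of the same start. All of these peaks had Gna15, and not S1pr4, as their nearest gene start. The Gna11 promoter peak, chr10:81545186-81545491, held 14 reads (95% CI 7.65 to 23.5), a fold enrichment of 10.2, 45.1 kb upstream of S1pr4.

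Of these upstream peaks, 2 had WGATAR near the summit. The intronic Gna15 peak had AGATAG 83.5 bp from the summit and a second WGATAR 135.5 bp from it on the other side. The taller Gna15 promoter peak had TGATAG 77.5 bp from the summit, with further motifs 125.5 bp and 146.5 bp from it. The sequences run over chr10:81519420-81519691 and chr10:81525027-81525325.
Gna15 intron peak: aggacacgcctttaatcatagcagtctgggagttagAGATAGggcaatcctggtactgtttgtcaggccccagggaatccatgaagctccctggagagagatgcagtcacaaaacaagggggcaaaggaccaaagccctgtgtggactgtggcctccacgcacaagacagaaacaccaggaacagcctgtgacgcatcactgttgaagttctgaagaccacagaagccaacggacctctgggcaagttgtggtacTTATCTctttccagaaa
Gna15 upstream peak: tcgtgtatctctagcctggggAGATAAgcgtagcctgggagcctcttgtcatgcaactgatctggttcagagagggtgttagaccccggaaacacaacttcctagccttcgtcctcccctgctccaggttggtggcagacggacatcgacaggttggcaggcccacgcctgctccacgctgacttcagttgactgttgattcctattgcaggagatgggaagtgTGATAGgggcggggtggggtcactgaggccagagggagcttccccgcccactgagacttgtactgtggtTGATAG
The other 2 upstream peaks, at the Gna15 start and at Gna11, had no WGATAR within 100 bp of the summit.

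The tallest peak linked to any of the receptor genes was intronic in Nfic, which encodes a nuclear factor I transcription factor, 90.9 kb downstream of the S1pr4 start. This peak, chr10:81408817-81409653, held 24 reads (95% CI 15.4 to 35.7), a fold enrichment of 17.1, and stood at percentile 86.2 of the GATA2 list. A second intronic Nfic peak, chr10:81413820-81414315, held 10 reads (95% CI 4.80 to 18.4), a fold enrichment of 7.51, 86.1 kb downstream. A peak in an intron of Celf5, chr10:81464457-81464739, held 11 reads (95% CI 5.49 to 19.7), a fold enrichment of 8.20, 35.6 kb downstream. WGATAR was absent from the 100 bp on each side of these 3 downstream summits. The nearest gene start was that of Smim24 for both Nfic peaks and that of Nfic for the Celf5 peak. The 101 bases around the tallest summit, chr10:81409167-81409267, show its sequence.
Nfic intron peak: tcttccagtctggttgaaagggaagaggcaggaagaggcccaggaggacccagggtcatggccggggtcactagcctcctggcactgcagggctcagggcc
No 9aa-Ins peak was linked to S1pr4, and the nearest lay 179.4 kb from its start with 11 reads.

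The 5 GATA2 peaks linked to S1pr2 lay at other genes, and 2 of them were shared with 9aa-Ins. S1pr2 (ENSMUSG00000043895.6) is at chr9:20962361-20976781 on the minus strand, among the starts of 11 other protein-coding genes within 100 kb. The closest peak, chr9:20952597-20952901, was at a promoter of Dnmt1, the maintenance DNA methyltransferase gene, 24.0 kb downstream of the S1pr2 start, with its summit 143 bp from a Dnmt1 transcript start. It held 19 reads with GATA2 (95% CI 11.4 to 29.7), a fold enrichment of 13.7. The 9aa-Ins peak, chr9:20952642-20952891, held 16 reads (95% CI 9.15 to 26.0), a fold enrichment of 11.7, and lay wholly within the GATA2 peak, with an overlap of 250 bp and the summits 47 bp apart. The intervals of these counts overlap.

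The other shared site was at Ppan, a ribosome biogenesis gene, 88.5 kb downstream of the S1pr2 start. The GATA2 peak, chr9:20888175-20888475, held 17 reads (95% CI 9.90 to 27.2), a fold enrichment of 12.3, with its summit in an exon 127 bp downstream of the gene start. The 9aa-Ins peak, chr9:20887994-20888244, held 10 reads (95% CI 4.80 to 18.4), a fold enrichment of 7.56, with its summit 66 bp upstream of that start. Here too the intervals of the counts overlap. The peaks overlapped by 70 bp, and the summits were 193 bp apart on either side of the Ppan start. Neither shared site had WGATAR within 100 bp of a summit in either list. Over the whole lists, 30.3% of GATA2 peaks and 12.1% of 9aa-Ins peaks had it.

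The remaining S1pr2 peaks were in the GATA2 list only. The peak at the promoter of Icam4, which encodes an erythroid adhesion molecule, at chr9:21029392-21029661 and 52.7 kb upstream of S1pr2, held 15 reads (95% CI 8.40 to 24.7), a fold enrichment of 10.9, and was the only S1pr2 peak with WGATAR near the summit. The motif, AGATAA on the minus strand, was 50.5 bp from the summit and straddled the edge of the peak. It is shown with 12 bases on each side, chr9:21029377-21029406.
Icam4 promoter motif: cagggtgccttcTTATCTcctgcggccagc
A peak in an exon of Angptl6, chr9:20878225-20878536, and an intronic peak 240 bp into Fdx1l, chr9:21073251-21073491, held 16 reads each (95% CI 9.15 to 26.0), a fold enrichment of 11.6. These were 98.5 kb downstream and 96.6 kb upstream of the S1pr2 start, near the limit of the reach. Just outside it, 115.2 kb upstream at the Raver1 promoter, a GATA2 peak of 23 reads overlapped a 9aa-Ins peak of 12 reads.

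Cnr2 had 3 linked GATA2 peaks, and none had WGATAR within 100 bp of the summit. Cnr2 (ENSMUSG00000062585.11) is at chr4:135895394-135920207 on the plus strand, with 7 other protein-coding gene starts within 100 kb. The closest peak, chr4:135873557-135873866, was 21.6 kb upstream at the promoter of Pnrc2, a nuclear receptor coactivator gene, and held 17 reads (95% CI 9.90 to 27.2), a fold enrichment of 12.3. A peak in the first part of Srsf10, a splicing factor gene, at chr4:135855797-135856423, held 14 reads (95% CI 7.65 to 23.5), a fold enrichment of 10.2, 39.2 kb upstream. Outside the reach, a GATA2 peak 126.4 kb downstream lay at the Eloa promoter, with 25 reads and no WGATAR, and the nearest GATA2 peak with WGATAR was 135.8 kb downstream with 12 reads. The nearest 9aa-Ins peak was 622.6 kb from the Cnr2 start.

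The receptor gene peaks lay between percentiles 5.17 and 86.2 of the list by fold enrichment. The 17 GATA2 peaks held 10 to 24 reads with a median of 14, whereas all GATA2 peaks held 9 to 166 reads with a median of 15 and an upper quartile of 20. The taller Nfic and Gna15 peaks, with 24 and 21 reads, were above this quartile. The width of the receptor gene peaks was 178 to 837 bp with a median of 306 bp, beside a median of 341 bp over all GATA2 peaks. The median GC content of the 201 bp around the summit was 65.2% for the receptor gene peaks and 58.2% for all GATA2 peaks.

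**Figure D2:**
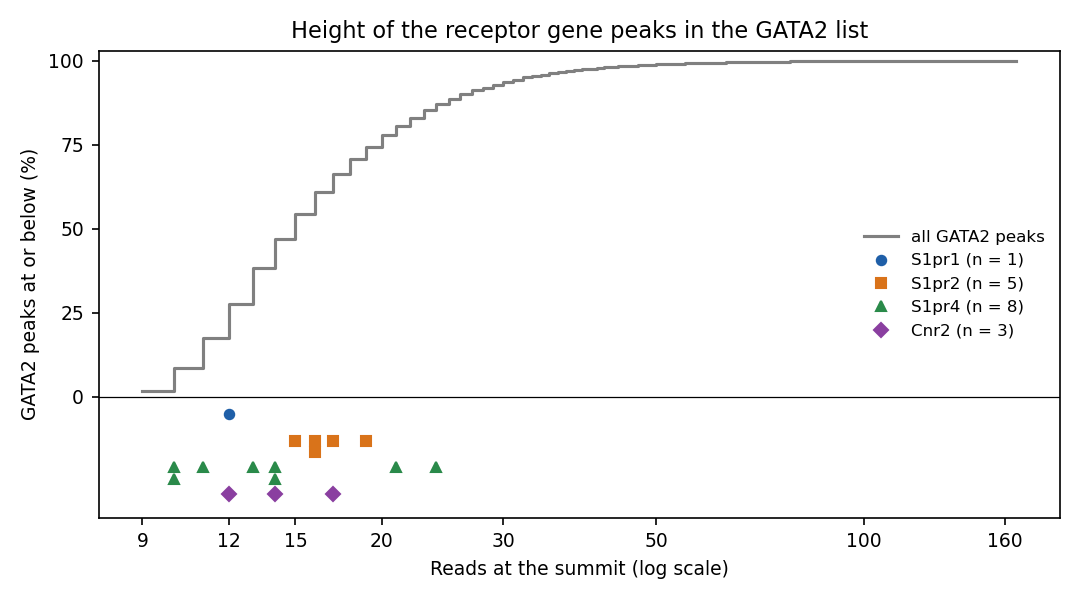
The grey line gives the percentage of all 6254 GATA2 peaks with at most the number of reads on the x axis (log scale), and the symbols below it give the 17 peaks linked to the receptor genes, stacked where reads are equal. The receptor gene peaks lie between 10 and 24 reads, and the list reaches 166 reads.

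Absence from the 9aa-Ins list was read against the fewest reads that a listed peak can have, which was 9 in both lists. Of the 15 receptor gene peaks found with GATA2 only, 5 had a Poisson interval wholly above 9 reads, all of them with 16 reads or more. These were the Angptl6 and Fdx1l peaks of S1pr2, the taller Gna15 promoter peak and the taller Nfic peak of S1pr4, and the Pnrc2 peak of Cnr2. For the other 10, including the S1pr1 peak, counting error alone spans the limit, so a loss with 9aa-Ins was not detectable at this depth. This sets a count against a limit and is no test of a difference between the proteins. Over all 5296 GATA2-only peaks, 39.3% had an interval wholly above the limit. The number of receptor gene peaks that overlapped a 9aa-Ins peak, 2 of 17 (11.8%, Wilson 95% CI 3.29 to 34.3), stood beside 15.3% of all GATA2 peaks.

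WGATAR was within 100 bp of the summit in 4 of the 17 GATA2 peaks (23.5%, Wilson 95% CI 9.56 to 47.3), and in 30.3% of all GATA2 peaks. These 4 were the S1pr1 peak, the Icam4 peak and the intronic and taller promoter peaks of Gna15, and none of them overlapped a 9aa-Ins peak. Over all GATA2 peaks, with or without WGATAR, 15.3% overlapped one. The share among all GATA2 peaks with WGATAR is not given here, so the absence of overlap cannot be tied to the receptor genes. Outside promoters, WGATAR was found in 2 of 9 receptor gene peaks and in 45.4% of all GATA2 peaks. At promoters, it was found in 2 of 8 and in 13.7%. The wide intervals of the receptor gene shares, 6.32 to 54.7% outside and 7.15 to 59.1% at promoters, reflect the small number of peaks. With other motif rules, the receptor gene share was 5.88% within 50 bp of the summit, beside 18.3% of all GATA2 peaks. It was 29.4% within 250 bp, beside 48.0%, and 17.6% anywhere in the peak, beside 41.3%. The core GATA within 100 bp was in 29.4%, beside 48.2%.

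**Figure D3:**
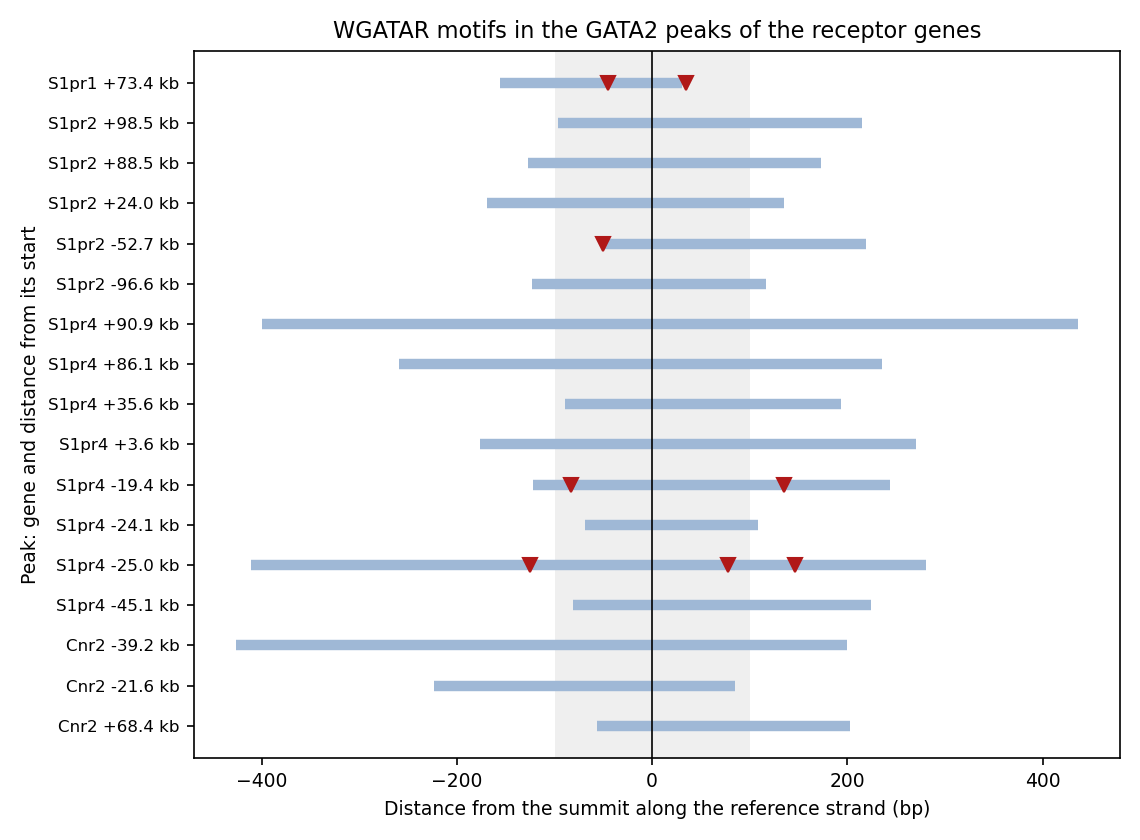
Each row is 1 of the 17 GATA2 peaks, named by its receptor gene, the distance from that gene's start in kb, with positive values in the direction of transcription. The pale bar is the called peak, the x axis gives the distance from the summit in bp, the grey band marks 100 bp on each side and red triangles mark WGATAR, which fall within the band in 4 rows.

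Other motifs were counted in the same 201 bp windows. GGAA, the core bound by ETS factors, was in 15 of the 17 peaks and in 88.2% of all GATA2 peaks. The E-box CANNTG, bound by basic helix-loop-helix factors such as TAL1, was in 6 of 17 and in 53.9% of all. An E-box 6 to 14 bases before WGATAR, an arrangement that GATA factors can bind with TAL1, was in 0 of 17 and in 3.01% of all. Motifs were searched on both strands, and a match is a description and not a binding site.

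All WGATAR copies around the receptor genes were also counted, with or without a peak. Within 100 kb on each side of the gene start, 493 copies were found at S1pr1, 348 at Cnr2, 265 at S1pr2 and 202 at S1pr4. Of these 1308 copies, 5 lay within 100 bp of a GATA2 summit. The share over all WGATAR copies of the genome is not given here, so this count cannot be called low or high. The RefSeq promoter table (GRCm38.p6; 250 bases before to 50 after a transcript start) had 4 windows for S1pr2, S1pr4 and Cnr2, of which 0 held WGATAR and 0 overlapped a GATA2 or 9aa-Ins peak. WGATAR was found in 29.8% of its 32851 windows, and the share of these windows that overlapped a peak is not given here.

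Promoters of other genes held 8 of the 17 GATA2 peaks, which stood beside 47.8% of all GATA2 peaks at promoters. Of the other peaks, 5 were intronic (29.4%, beside 27.1% of all GATA2 peaks), 3 exonic (17.6%, beside 5.52%) and 1 intergenic (5.88%, beside 19.5%). The Wilson 95% intervals of the receptor gene shares were 13.3 to 53.1%, 6.19 to 41.0% and 1.05 to 27.0%. Of the 25 other protein-coding genes that start within 100 kb of a receptor gene start, 7 had a GATA2 peak at their promoter, beside 14.8% of all protein-coding genes.

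The number of linked peaks varied with the number of genes nearby. Over all protein-coding genes with 1 gene start within 100 kb, their own, 22.1% had a GATA2 peak and the median was 0 peaks. S1pr1, with 1 start, had 1 peak. With 6 to 10 starts the median was 1 peak, with quartiles of 0 and 3, and here Cnr2 stood at the upper quartile and S1pr4 above it with 8 peaks. With 11 starts or more the median was 3 and the quartiles 1 and 5, and S1pr2, with 12 starts, stood at the upper quartile. Over all protein-coding genes, 1.20% had more linked GATA2 peaks than S1pr4, 4.94% more than S1pr2, 11.6% more than Cnr2 and 32.2% more than S1pr1.

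**Figure D4:**
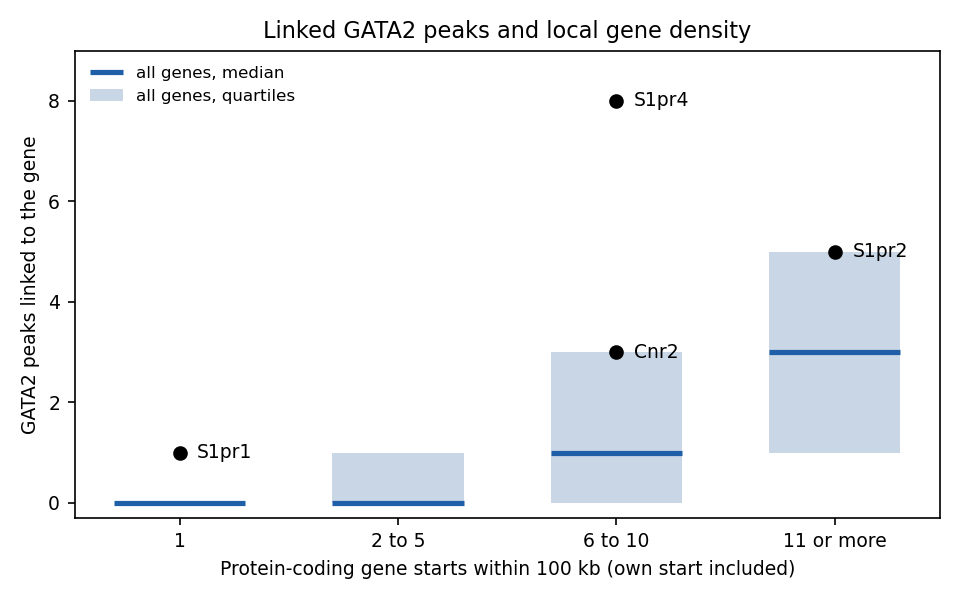
The x axis groups all protein-coding genes by the number of protein-coding gene starts within 100 kb, their own included, and the y axis gives the number of linked GATA2 peaks. Bars span the quartiles, blue lines are medians and black points are the receptor genes. S1pr4, with 8 peaks, lies above the upper quartile of 3 for its group.

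The other receptors of the family were examined by the same rule. S1pr3 and Cnr1, each with no other gene start within 100 kb, had 0 linked peaks in either list, and the nearest GATA2 peaks were 236.5 kb and 676.0 kb from their starts. S1pr5, a receptor of natural killer cells, with 9 gene starts in reach, had 6 GATA2 peaks and 1 9aa-Ins peak. The nearest S1pr5 peak was 16.8 kb from its start with 33 reads and WGATAR near the summit. Of the 7 receptor genes, 5 had a linked GATA2 peak, 1 was the nearest gene start of such a peak, and 0 had one at their own promoter, beside 52.5%, 20.5% and 14.8% of all protein-coding genes.

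Genes that act with the receptors were taken from lists of S1P and endocannabinoid metabolism, G proteins and effectors, and receptor regulators. Together with S1pr3, S1pr5 and Cnr1 these lists held 39 genes, of which 27 had a linked GATA2 peak, 11 had a linked 9aa-Ins peak, and 13 had a GATA2 peak at their own promoter. Over all protein-coding genes these shares were 52.5%, 18.6% and 14.8%. Among G proteins and effectors, 10 of 11 had a linked GATA2 peak and 5 had one at the promoter, beside the same 52.5% and 14.8% of all genes. These genes had a median of 8 gene starts within 100 kb, and of all genes with 6 to 10 starts 63.6% had a linked GATA2 peak. Rhoa, the small GTPase that restrains migration downstream of S1PR2, had a promoter peak of 27 reads with its summit 2 bp from the gene start. Gnai2, the Gi α subunit used by S1PR1 and CNR2, had one of 22 reads. Arhgef1, the exchange factor that links such receptors to Rhoa, had one of 18 reads, and Gna15 and Gna11 had the promoter peaks described with S1pr4.

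Receptor regulators had a linked GATA2 peak in 5 of 6 genes, with promoter peaks at 3, where all genes gave 52.5% and 14.8%. Klf2, a transcription factor that activates S1pr1, had a promoter peak of 18 reads. The arrestin genes Arrb1 and Arrb2, whose products bind activated receptors, had promoter peaks of 29 and 17 reads. Cd69, whose product removes S1PR1 from the cell surface, had 0 linked peaks in either list.

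Among genes of S1P synthesis, export, carrier and breakdown, 7 of 11 had a linked GATA2 peak, a share near the 52.5% of all genes, and 3 had one at the promoter, beside 14.8%. Sphk2, a sphingosine kinase gene, had promoter peaks of 12 and 10 reads. Promoter peaks at Spns2, an S1P exporter gene, and at Sgpl1, the S1P lyase gene, held 10 reads each, and WGATAR was near the Sgpl1 summit. These heights are close to the limit of 9 reads.

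Of the genes for endocannabinoid synthesis and breakdown, 4 of 8 had a linked GATA2 peak, a share near the 52.5% of all genes, and 2 had one at the promoter, beside 14.8%. The Napepld promoter peak, at the gene for an enzyme of anandamide synthesis, held 23 reads with GATA2, and the overlapping 9aa-Ins peak held 18 reads. Napepld was the only list gene with a 9aa-Ins peak at its own promoter, 1 of the 39 genes counted above. Such a peak was found at 810 of all 21938 protein-coding genes, and no difference from this share was tested. Abhd12, a lipase gene, had a promoter peak of 11 reads.

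**Figure D5:**
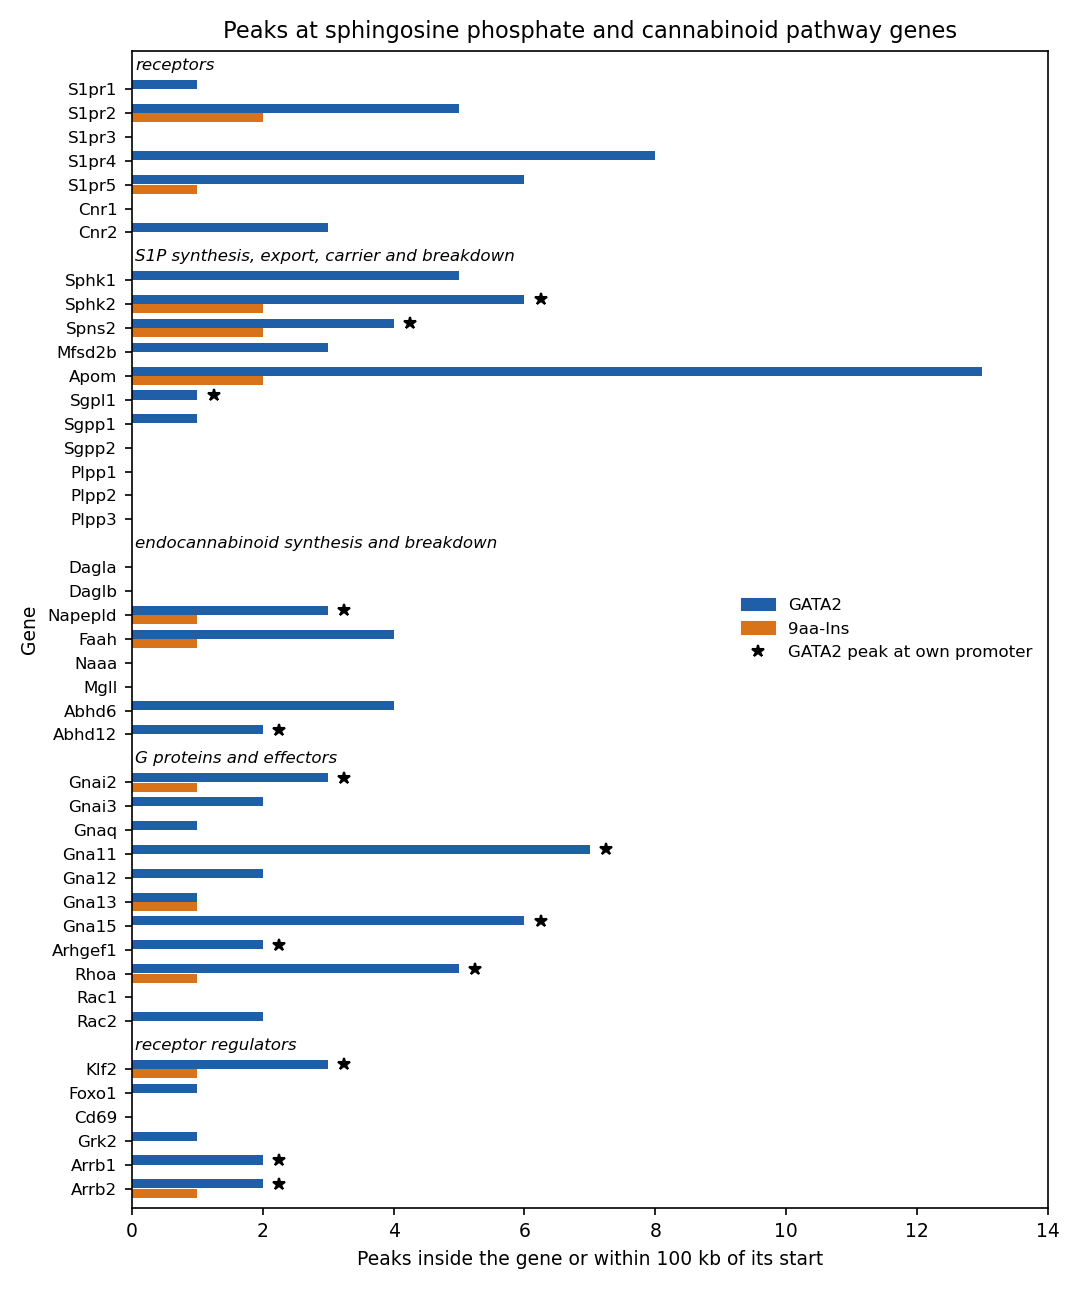
The x axis gives the number of GATA2 (blue) and 9aa-Ins (orange) peaks inside each gene or within 100 kb of its start, for the 43 genes of the 5 lists on the y axis. Stars mark a GATA2 peak at the gene's own promoter, which 13 genes had and none of the 7 receptor genes.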

How the data were processed

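Anti-HA CUT&Tag was measured in hi-77-/- cells with GATA2 or 9aa-Ins (2 libraries each). Bowtie2 alignment to mm10 and the removal of duplicated and blacklisted reads were done by the authors, who called peaks with MACS3 at a q-value of 1e-06. Tool versions were not given in the sources used here. The deposited lists name merged replicates, whereas the methods describe merging of peaks called per replicate, so which step merged them is not settled. The deposited fold enrichment is a ratio, the summit pileup plus 1 over the background plus 1, and the deposited score is 10 times the −log10 q-value, without decimals. The −log10 q-value was also deposited by the authors and set the stricter q-values, and the column of −log10 p-values was not used.

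All fold enrichments came out as whole pileups (100%, within 0.05 reads), with a background of 0.464 reads (GATA2) and 0.455 reads (9aa-Ins). Library totals were not used here, and the lowest pileup, 9 reads, limits both lists. Whether a read stands for 1 sequenced end or 1 fragment was not given in the sources used here. Columns of other samples numbered 0.

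Genes were from GENCODE M21 on GRCm38, without the mitochondrial chromosome, and promoters and exons from its basic transcripts. Peaks overlapping by at least 1 bp were shared. WGATAR had to lie wholly within 100 bp of the summit. All 43 list genes matched. RefSeq promoter windows (83 of 83 examined) equalled the genome sequence. Scripts (Python 3.11.15, pandas 2.3.3, pysam 0.24.0, SciPy 1.17.1) were tested on simulated data. Genes named are the receptors, the nearest protein-coding gene of each peak, and list genes with a promoter peak. The nearest gene of 1 Cnr2 peak is not reported here. Celf5, Raver1, Eloa and Cd69 were chosen after their values were seen. The members and lists were chosen with earlier results of these data known. Alternatives were another reach, the nearest gene only, other transcript starts, stricter q-values, other overlap rules, other motif windows and a wider promoter.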

Additional observations from a re-analysis of the deposited data

How the results depend on the processing

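Of 23 alternatives, 9 left a count within 1.5 times its main value and 14 moved it. The 17 linked GATA2 peaks became 1 within 10 kb, 9 within 50 kb, 34 within 250 kb and 1 when a peak was linked to the nearest gene start only. They stayed at 17 with any transcript start or a q-value of 1e-08, and 14 were left at 1e-10. The 2 linked 9aa-Ins peaks became 0 within 10 kb, 1 within 50 kb, 5 within 250 kb, 0 with the nearest gene start only, and 1 at a q-value of 1e-08 or 1e-10. The 2 shared peaks became 1 with a reciprocal overlap of 50%, at 1e-08 and at 1e-10, and stayed 2 with summits within 200 bp. The 4 peaks with WGATAR became 1 within 50 bp of the summit, 5 within 250 bp, 3 inside the peak and 5 with the core GATA. The 8 promoter peaks became 11 with promoters of 3 kb upstream to 500 bp downstream. A wider or narrower reach changes counts by its construction, and the cause of the other changes was not tested. No paired analysis was possible because no result comes from a test and both lists merge their replicates. For the same reason no replicate could be left out. Peaks of 9 to 15 reads cannot be told from the limit of the lists by counting error.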

Other observations

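A reach of 250 kb added peaks for each receptor gene. Within this distance of the gene start, 17 GATA2 peaks were found for S1pr4, 9 for S1pr2, 6 for Cnr2 and 2 for S1pr1. The tallest of these was at the Fzr1 promoter, 121.5 kb downstream of S1pr4, with 44 reads and no WGATAR within 100 bp of the summit. Within the same distance, 9aa-Ins peaks numbered 3 for S1pr2, 2 for S1pr4, 0 for Cnr2 and 0 for S1pr1. Both S1pr4 sites, at the Cactin and Tjp3 promoters, overlapped GATA2 peaks and held 11 reads each with 9aa-Ins, beside 35 and 21 reads with GATA2. Apom, the gene for the S1P carrier protein, had the most linked GATA2 peaks of the lists, 13, among 23 gene starts within 100 kb, and 0 at its own promoter. Fzr1, Cactin, Tjp3 and Apom were chosen after their values were seen.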
